A study of Mus musculus with 9 samples.

Results

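Imprinted genes are the genes whose RNA comes mainly from 1 parental copy, and 36 of them were followed in E12.5 mouse embryo blood. They were listed by name, with earlier results of these data known, so the shares among them describe this list only. A gene was read by the probe sets (groups of short array probes for 1 transcript) that the platform annotation assigns to it alone, and the brightest of them, by its mean over the 9 arrays, stood for it. This gave 34 measured imprinted genes of 18193 measured genes. H19 had only a probe set shared with Mir675, and Zrsr1 had none in the annotation used here.

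The 3 groups were homozygous CbfbΔC95/ΔC95, heterozygous Cbfb+/ΔC95 and wild-type Cbfb+/+ blood, all from matings of heterozygous parents on a mixed C57BL6/129SvEv background. Each RNA sample came from blood pooled over 8 to 10 embryos of 1 genotype, and 3 Affymetrix whole-genome mouse arrays were hybridized per genotype. Cbfb codes for CBFβ, the partner of the DNA-binding RUNX proteins in core binding factor; the title of the series is about the C-terminal part of the leukemia fusion protein CBFβ-SMMHC, and the labels name the ΔC95 allele without describing it further. Whether the arrays of 1 genotype hold separate pools is not stated, and the p-values therefore cover only the spread among the arrays at hand, possibly technical.

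Imprinting is set in the germ line by DNA methylation at control regions, which is then kept through cell division in the embryo. Many imprinted genes lie in clusters around such a region, with paternally and maternally expressed members side by side. Several of the paternally expressed ones, such as Igf2, promote fetal growth, and several of the maternally expressed ones, such as Cdkn1c, Grb10, Phlda2 and Igf2r, restrain it. At midgestation many are abundant in mesenchyme, muscle, liver, placenta or the developing nervous system. The array sums the RNA of both parental alleles, so a difference between genotypes says nothing about which allele was read.

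Values are deposited log2 signals, equalized between arrays, and differences are log2 differences. Values lay between 1.49 and 14.56, array medians between 4.27 and 4.30, and arrays of a genotype correlated at r = 0.996 to 0.998. Cbfb itself, read by 1 probe set whose position in the altered allele is unknown here, was at 5.10 ± 0.16 in homozygous, 5.77 ± 0.04 in heterozygous and 6.01 ± 0.03 in wild-type blood (SD, n = 3 each). The embryonic globin genes Hba-x, Hbb-y and Hbb-bh1, which define primitive red cells, were near the top of the scale in every genotype. The poly-A spike-ins, bacterial RNAs added before labelling, averaged 11.96 ± 0.02 on homozygous, 11.26 ± 0.00 on heterozygous and 10.38 ± 0.02 on wild-type arrays (SD, n = 3 each, 24 probe sets). Directions given here are therefore relative to the whole of each array. With the spike-in means set equal, the median of all probe sets moved to -1.54 in homozygous minus wild-type blood and -0.87 in heterozygous minus wild-type blood, and all 34 imprinted genes then fell in homozygous blood. In bulk blood, fewer cells of a type and less RNA per cell cannot be told apart.

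The 5 promoter windows printed here belong to genes on which the results turn. Mest, Plagl1, Nnat and Dlk1 were highest in heterozygous blood, and Peg3 had the widest fall in homozygous blood. Each window runs from 250 bases before to 50 bases after an annotated start, 5′ to 3′ on the gene's strand, from RefSeq on GRCm38.p6. Capitals mark TGCCGC, the hexamer bound by the imprint-keeping protein ZFP57, and TGTGGT or TGCGGT, cores bound by RUNX proteins, each searched on both strands. The windows are Mest at chr6:30737800-30738099 on the plus strand, Plagl1 at chr10:13090582-13090881 on the plus strand, Nnat at chr2:157559828-157560127 on the plus strand, Dlk1 at chr12:109452573-109452872 on the plus strand and Peg3 at chr7:6730370-6730669 on the minus strand.
Mest: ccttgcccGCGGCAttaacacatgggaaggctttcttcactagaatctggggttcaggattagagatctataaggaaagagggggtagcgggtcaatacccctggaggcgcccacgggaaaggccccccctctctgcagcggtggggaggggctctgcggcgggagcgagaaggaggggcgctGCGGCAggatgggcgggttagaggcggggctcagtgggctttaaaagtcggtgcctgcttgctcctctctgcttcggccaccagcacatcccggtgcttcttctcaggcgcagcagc
Plagl1: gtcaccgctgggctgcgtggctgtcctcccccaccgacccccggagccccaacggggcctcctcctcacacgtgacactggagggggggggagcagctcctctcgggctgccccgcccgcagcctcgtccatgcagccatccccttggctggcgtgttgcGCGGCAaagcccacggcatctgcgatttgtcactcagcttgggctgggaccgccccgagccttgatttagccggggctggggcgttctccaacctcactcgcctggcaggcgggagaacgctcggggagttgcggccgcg
Nnat: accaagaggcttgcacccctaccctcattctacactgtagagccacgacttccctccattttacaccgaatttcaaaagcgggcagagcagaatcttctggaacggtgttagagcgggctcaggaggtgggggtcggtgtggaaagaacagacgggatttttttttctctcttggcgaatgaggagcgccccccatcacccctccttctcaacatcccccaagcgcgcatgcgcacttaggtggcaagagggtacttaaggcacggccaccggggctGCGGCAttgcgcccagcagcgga
Dlk1: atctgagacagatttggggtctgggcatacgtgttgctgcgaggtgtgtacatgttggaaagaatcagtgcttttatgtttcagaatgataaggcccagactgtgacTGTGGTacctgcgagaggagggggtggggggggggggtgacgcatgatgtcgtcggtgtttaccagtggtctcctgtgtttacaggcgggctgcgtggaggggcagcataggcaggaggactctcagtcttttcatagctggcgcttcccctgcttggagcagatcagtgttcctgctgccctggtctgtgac
Peg3: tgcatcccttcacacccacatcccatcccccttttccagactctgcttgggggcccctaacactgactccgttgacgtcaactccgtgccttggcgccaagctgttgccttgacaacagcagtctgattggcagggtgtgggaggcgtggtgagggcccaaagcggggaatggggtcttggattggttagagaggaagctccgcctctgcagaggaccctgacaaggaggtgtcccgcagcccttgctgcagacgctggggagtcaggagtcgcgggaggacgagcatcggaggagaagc
The Mest window holds 2 TGCCGC, the Plagl1 and Nnat windows 1 TGCCGC each, the Dlk1 window 1 TGTGGT, and the Peg3 window none of the 3. RefSeq gives Mest 2 further windows. One starts 3 bases on from the printed window and holds the same hexamers, and the other, at chr6:30733256-30733555, holds 1 TGCGGT and no TGCCGC. CpG dinucleotides number 17 in the Mest window, 26 in Plagl1, 17 in Nnat, 9 in Dlk1 and 13 in Peg3.

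RefSeq windows were matched for 29 of the 34 measured imprinted genes, 44 windows in all, and no window was matched for Cdkn1c, Peg10, Sgce, Impact or Dcn. Their median CpG count was 13.5 (0 to 48), against 7 over all 32851 windows of 27025 genes, and their median GC content was 58.7%, against 52.7%. TGCCGC lay in a window of 8 of the 29 genes (27.6%, against 13.1% of all genes), which were Grb10, Igf2, Meg3, Mest, Nnat, Plagl1, Snrpn and Zim1. A RUNX core of either spelling lay in a window of 8 genes (27.6%, against 25% of all genes). By window, TGCCGC was in 20.5% of the imprinted windows and 11.6% of all windows, and either RUNX core in 18.2% and 22.4%. A match is a run of letters, not a measured binding site.

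In homozygous blood the imprinted genes that differed from wild type were mostly lower. Of 34, 11 fell and 2 rose at an adjusted p under 0.05 (limma, Benjamini-Hochberg over 45037 probe sets, here and in every adjusted p). The 13 are 38.2% of the imprinted genes. Over all genes 25.6% were called, 14.9% lower and 10.7% higher. The median difference was -0.030 for the imprinted genes and 0.046 for all genes. The falls were in Peg3, Plagl1, Gnas, Grb10, Cd81, Mest, Cdkn1c, Igf2, Dcn, Gatm and Igf2r, and the rises in Nnat and H13, relative to each array as a whole. With the means of 7 reference genes set equal, 2 imprinted genes rose and 15 fell, while 4.17% of all genes rose and 28.3% fell. With the spike-in means set equal all 34 fell, as did 18192 of all 18193 genes (100%), so that count is fixed by the constant added to each array.

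In heterozygous blood the called imprinted genes were mostly higher than in wild type. Of 34, 8 rose (Nnat, Mest, Plagl1, Ndn, Dlk1, Igf2, H13 and Cdkn1c) and 3 fell (Phlda2, Gnas and Grb10), which is 32.4% against 11.8% of all genes. Higher calls made up 4.79% of all genes and lower calls 7.04%. The median difference was 0.086 for the imprinted genes and 0.0085 for all genes. The direction split depends on the scaling: with the means of 7 reference genes set equal 8 rose and 6 fell, while 2.19% of all genes rose and 20.3% fell. With the spike-in means set equal 2 rose and 30 fell, while 0.0715% of all genes rose and 99.7% fell, a split set by the constant added to each array. The second brightest probe set, or the only one where a gene has 1, gave 5 calls, 4 higher and 1 lower. Over all genes 8.99% were then called, 3.81% higher and 5.18% lower. Of the 5, Mest, Nnat, Cdkn1c and Phlda2 have 1 probe set and repeat their calls above. Ndn alone was called by a second probe set (1.48, adjusted p = 1.81e-05).

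Between the mutant genotypes, 13 imprinted genes were lower and 2 higher in homozygous than in heterozygous blood, 44.1% of 34. Over all genes 15.8% were called, 10.4% lower and 5.38% higher. The genes that were lower were Mest, Plagl1, Peg3, Igf2, Cdkn1c, Ndn, Cd81, Dlk1, Nnat, Gnas, Dcn, Gatm and Grb10, and the higher ones were Phlda2 and H13. The median was -0.12 for imprinted genes and 0.028 for all genes. With the spike-in means set equal all 34 were lower, as were 99.7% of all genes. Against the midpoint of the homozygous and wild-type means, the heterozygous value was higher for 9 imprinted genes and lower for 1, 29.4% of 34, while 5.18% of all genes were called (3.64% higher, 1.53% lower).

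The comparisons share arrays, so the shapes over the 3 genotypes are counted here as descriptions. Heterozygous blood was higher than both other genotypes for Cdkn1c, Dlk1, Igf2, Mest, Ndn, Nnat and Plagl1, which are 7 of 34 (20.6%), against 0.923% of all genes. It was lower than both for Phlda2 alone (2.94%, against 0.396%). Homozygous blood was lower than both for 10 genes (29.4%, against 8.95%) and higher than both for H13 (2.94%, against 3.86%). Both mutant genotypes were higher than wild type for H13 and Nnat (5.88%, against 3.37%) and lower for Gnas and Grb10 (5.88%, against 6.31%). For Cdkn1c, Igf2, Mest and Plagl1, homozygous blood was lower and heterozygous blood higher than wild type (11.8%, against 0.28%, or 51 genes). In all, 16 of 34 were called in at least 1 comparison of 2 genotypes (47.1%, against 29.4%).

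**Figure D1:**
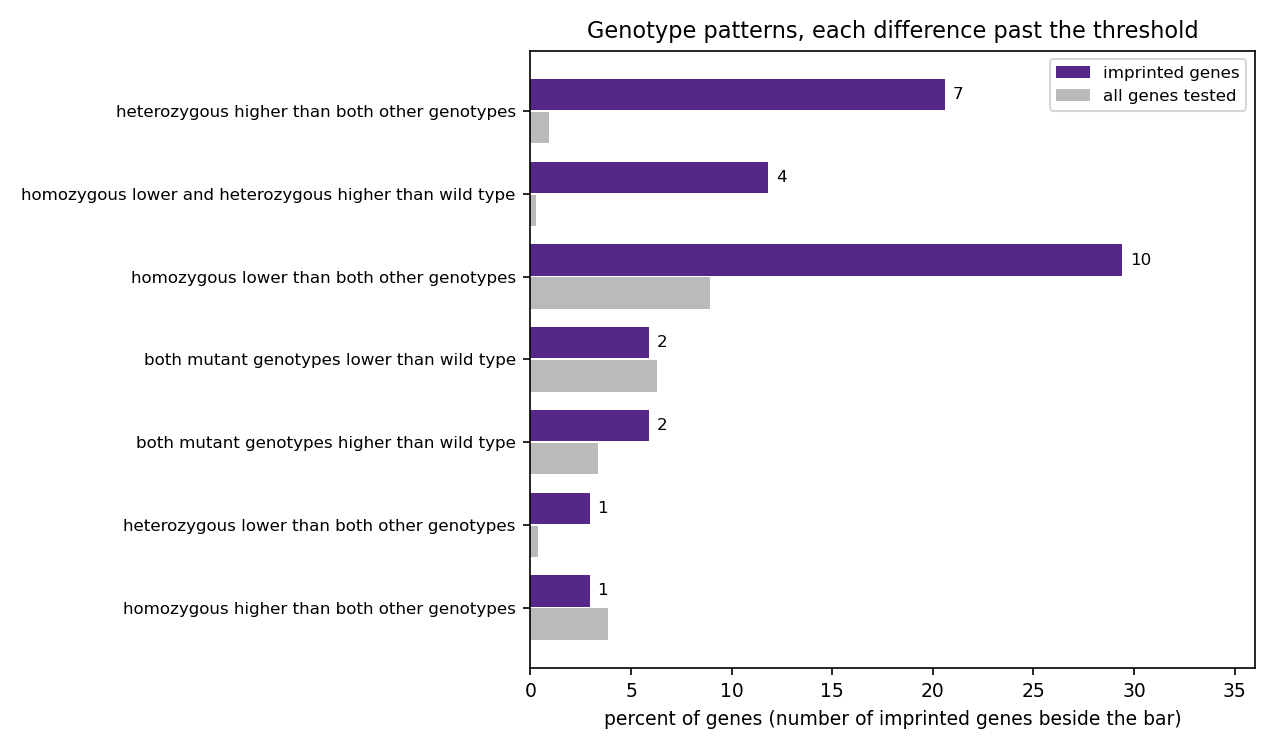
Bars give the share in percent of the 34 measured imprinted genes and of all 18193 measured genes that meet each shape over the 3 genotypes, at an adjusted p under 0.05 in every comparison the shape needs. The shape with heterozygous blood above both others holds 20.6% of the imprinted genes and 0.923% of all genes, relative to each array as a whole.

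Counting arrays without a test, 13 imprinted genes had homozygous arrays that did not overlap the wild-type arrays, 2 higher and 11 lower, while 39.3% of all genes did not overlap. Heterozygous and wild-type arrays did not overlap for 15 genes, 11 higher and 4 lower, against 29.9% of all genes. Homozygous and heterozygous arrays did not overlap for 18, 3 higher and 15 lower, against 31.1% of all genes.

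**Figure D2:**
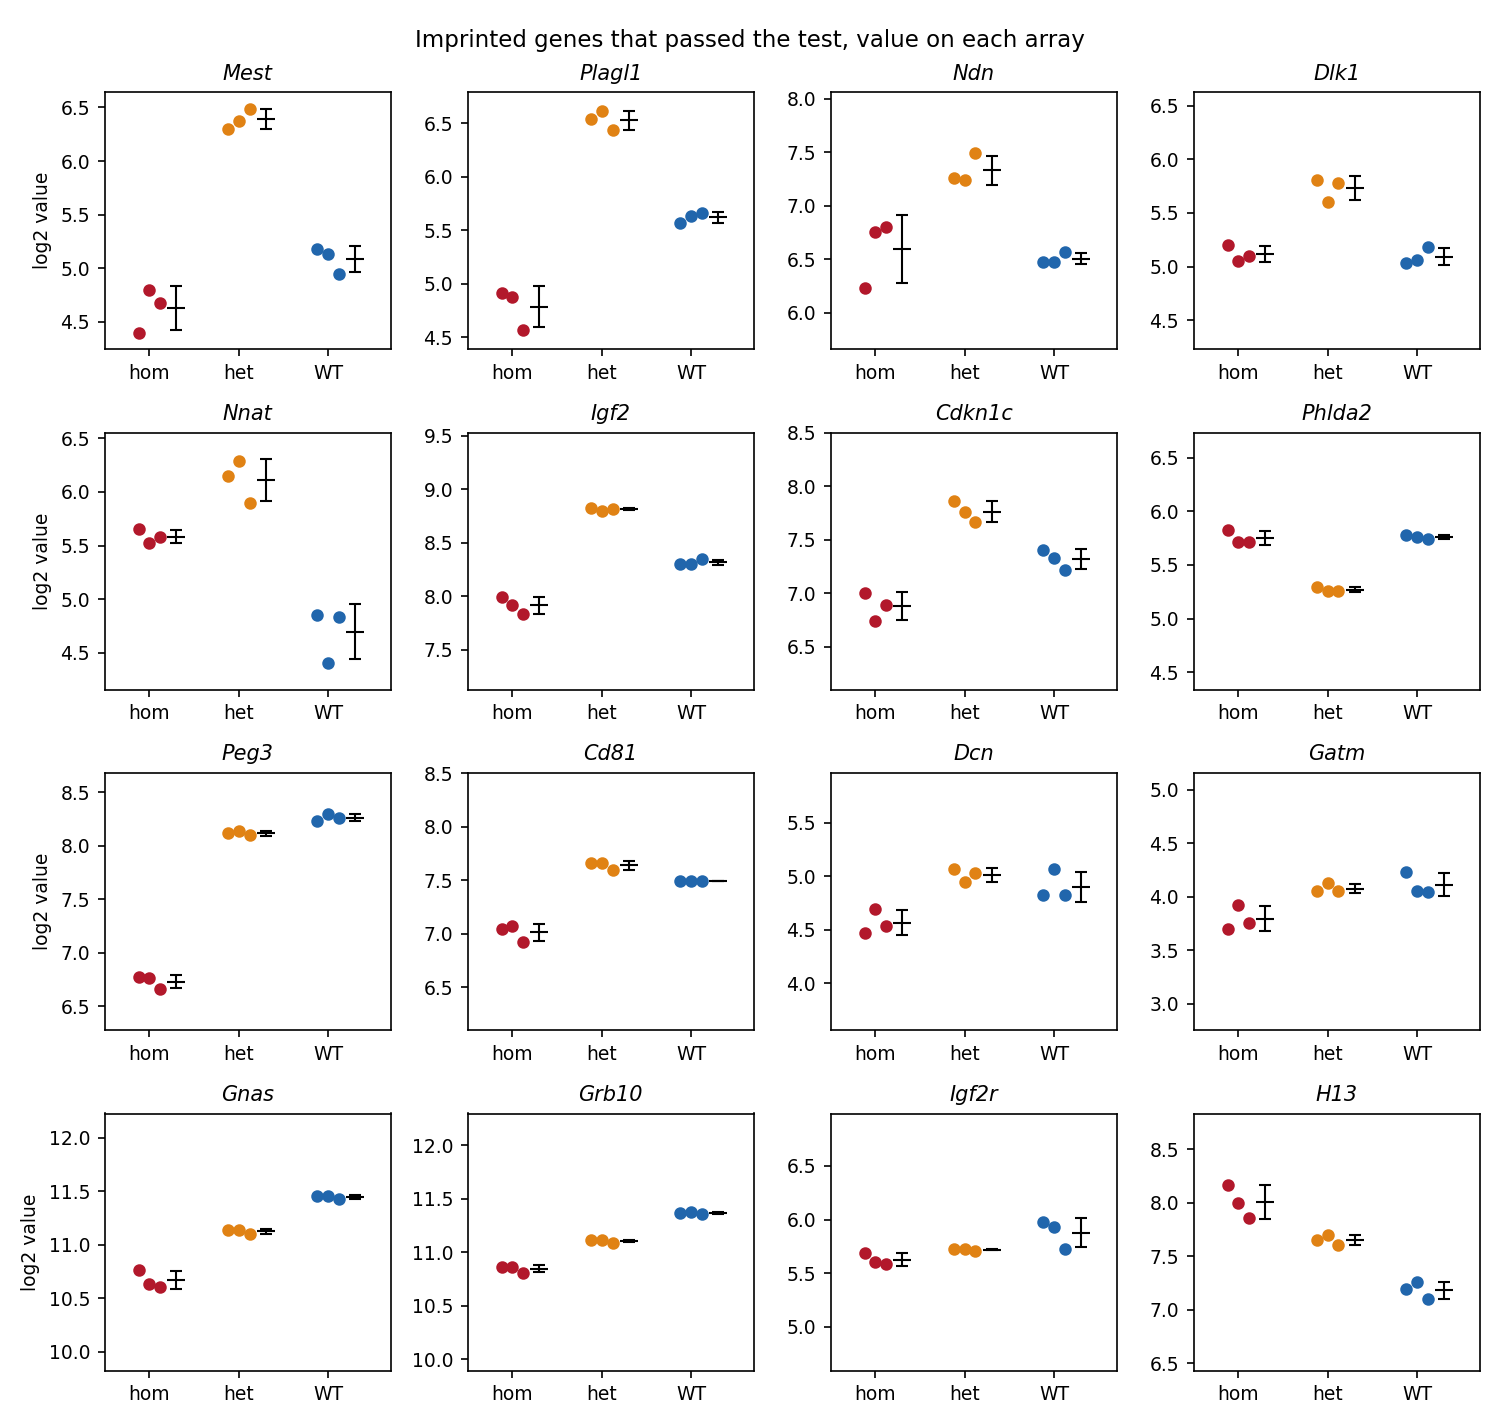
Each panel is 1 of the 16 called imprinted genes, with the deposited log2 value of every array as a point and the group mean ± SD beside the points (n = 3), for homozygous (hom), heterozygous (het) and wild-type (WT) blood; the vertical scale differs between panels. Heterozygous arrays stand above the other 6 for Mest, Plagl1, Igf2, Cdkn1c, Dlk1, Ndn and Nnat, and below them for Phlda2.

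Among the paternally expressed genes, Mest and Plagl1 were highest in heterozygous and lowest in homozygous blood. Mest, an alpha/beta hydrolase family gene abundant in embryonic mesoderm, was at 4.40, 4.80 and 4.68 on homozygous arrays, 6.30, 6.38 and 6.49 on heterozygous arrays and 5.18, 5.13 and 4.95 on wild-type arrays. The 3 groups do not overlap, with heterozygous arrays highest and homozygous arrays lowest. Mest rose by 1.31 in heterozygous against wild-type blood (2.47-fold, adjusted p = 1.84e-05) and differed by -0.46 ± 0.10 in homozygous minus wild-type blood (SE, adjusted p = 0.00576). Homozygous minus heterozygous was -1.76, a 3.40-fold lower signal (adjusted p = 4.5e-07), and the heterozygous mean stood 1.53 above the midpoint of the others (adjusted p = 9.89e-07).

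Plagl1, which encodes a zinc finger transcription factor that restrains the cell cycle, was at 4.92, 4.88 and 4.57 on homozygous arrays, 6.53, 6.61 and 6.43 on heterozygous arrays and 5.57, 5.64 and 5.66 on wild-type arrays. The groups again do not overlap and stand in the same order as for Mest. The difference was -0.83 ± 0.09 in homozygous minus wild-type blood (SE, 1.78-fold, adjusted p = 2.42e-05), 0.90 in heterozygous minus wild-type blood (1.87-fold, adjusted p = 9.64e-05) and -1.74 in homozygous minus heterozygous blood (3.34-fold, adjusted p = 1.93e-07). These values rest on a probe set ending in _x_at, a suffix for probes that may also match other transcripts. The other 2 Plagl1 probe sets passed in no comparison, and the brighter of them gave -0.0038 in homozygous minus wild-type and -0.0062 in heterozygous minus wild-type blood.

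Nnat, which encodes the small membrane protein neuronatin, was the one gene of this group that was also higher in homozygous blood. It was at 5.65, 5.52 and 5.58 on homozygous arrays, 6.15, 6.29 and 5.90 on heterozygous arrays and 4.85, 4.40 and 4.83 on wild-type arrays. Wild-type arrays were lowest and did not overlap either mutant genotype. Nnat rose by 0.89 ± 0.12 in homozygous (SE, adjusted p = 0.000194) and by 1.42 in heterozygous blood (2.67-fold, adjusted p = 3.91e-05), both against wild type. Homozygous minus heterozygous was -0.53 (adjusted p = 0.0145), and that call was lost without heterozygous replicate 1 (-0.51, adjusted p = 0.0542) or 2 (-0.44, adjusted p = 0.068).

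Ndn encodes necdin, a MAGE family protein that restrains growth in neurons. It was at 6.23, 6.75 and 6.80 on homozygous arrays, 7.25, 7.24 and 7.49 on heterozygous arrays and 6.48, 6.48 and 6.57 on wild-type arrays. Heterozygous arrays were above all others, while homozygous and wild-type arrays overlapped. The difference was 0.82 ± 0.13 in heterozygous minus wild-type blood (SE, 1.77-fold, adjusted p = 0.00169), -0.73 in homozygous minus heterozygous blood (adjusted p = 0.0024) and 0.09 in homozygous minus wild-type blood (adjusted p = 0.684). Without homozygous replicate 1, the lowest homozygous array, the last of these was 0.27 and passed (adjusted p = 0.0428). Of 8 Ndn probe sets, 5 were higher in heterozygous than in wild-type blood, by 0.82 to 1.83, and the same number were lower in homozygous than in heterozygous blood (-1.61 to -0.73).

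Dlk1, a membrane protein of the Notch ligand family that holds back adipocyte differentiation, was at 5.20, 5.05 and 5.10 on homozygous arrays, 5.81, 5.60 and 5.78 on heterozygous arrays and 5.03, 5.06 and 5.18 on wild-type arrays. Only the heterozygous arrays stood apart. Dlk1 differed by 0.64 ± 0.07 in heterozygous minus wild-type blood (SE, adjusted p = 0.000238), by -0.61 in homozygous minus heterozygous blood (adjusted p = 0.000137) and by 0.025 in homozygous minus wild-type blood (adjusted p = 0.855). Its second probe set did not pass, at -0.088 in heterozygous minus wild-type and 0.093 in homozygous minus heterozygous blood.

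Peg3 encodes a zinc finger protein and was the imprinted gene with the widest homozygous fall. It was at 6.77, 6.76 and 6.66 on homozygous arrays, 8.12, 8.14 and 8.10 on heterozygous arrays and 8.23, 8.30 and 8.26 on wild-type arrays. The homozygous arrays stood far below the other 6, and the heterozygous arrays just below wild type. Peg3 fell by 1.53 ± 0.06 on the log2 scale in homozygous against wild-type blood (SE, 2.89-fold, adjusted p = 7.87e-09) and was 2.61-fold lower than in heterozygous blood (-1.39, adjusted p = 2.71e-08), while heterozygous minus wild type was -0.14 (adjusted p = 0.175). Of 5 Peg3 probe sets, 3 fell in homozygous against wild-type blood, with differences of -1.53 to -0.68, and the other 2 did not pass.

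The neighbours of Peg3 did not follow it past the threshold. Usp29, a ubiquitin protease gene read from the opposite strand, has a promoter window that overlaps that of Peg3 by 263 bases. It was at 4.63 ± 0.36 in homozygous, 4.55 ± 0.04 in heterozygous and 4.48 ± 0.07 in wild-type blood (SD, n = 3 each), with a homozygous minus wild-type difference of 0.15 (adjusted p = 0.485). Without homozygous replicate 1 that difference was 0.35 and passed (adjusted p = 0.0207). Zim1, the maternally expressed zinc finger gene of the cluster, was at 3.62 ± 0.10 in homozygous, 3.58 ± 0.06 in heterozygous and 3.55 ± 0.07 in wild-type blood (SD, n = 3 each) and passed in no comparison.

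Igf2 encodes the fetal growth factor IGF2, and its homozygous and heterozygous changes ran in opposite directions. It was at 7.99, 7.92 and 7.83 on homozygous arrays, 8.82, 8.80 and 8.82 on heterozygous arrays and 8.30, 8.30 and 8.34 on wild-type arrays. The 3 genotypes do not overlap. The difference was -0.40 ± 0.06 in homozygous minus wild-type blood (SE, adjusted p = 0.000274), 0.50 in heterozygous minus wild-type blood (adjusted p = 0.000262) and -0.90 in homozygous minus heterozygous blood (adjusted p = 1.16e-06). The other Igf2 probe set averaged 2.66 in homozygous, 2.60 in heterozygous and 2.57 in wild-type blood, near the low end of the scale, and did not pass.

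Igf2r and Grb10, whose products act on IGF2 or on its signals, fell in homozygous blood. Igf2r, whose product carries IGF2 to lysosomes for breakdown, was at 5.69, 5.60 and 5.58 on homozygous, 5.72, 5.72 and 5.71 on heterozygous and 5.98, 5.93 and 5.72 on wild-type arrays. Homozygous arrays were below wild type, with wild-type replicate 3 close to the highest of them and level with the heterozygous arrays. The homozygous minus wild-type difference of -0.25 ± 0.07 passed (SE, adjusted p = 0.0256). That call was lost without homozygous replicate 2 (-0.24, adjusted p = 0.0681) or 3 (-0.23, adjusted p = 0.0794) and without wild-type replicate 1 (-0.20, adjusted p = 0.107) or 2 (-0.23, adjusted p = 0.0979). Igf2r did not pass in heterozygous minus wild-type blood (-0.16, adjusted p = 0.251).

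Grb10, an adaptor protein that damps insulin and IGF receptor signals, is read from the maternal allele in most tissues and the paternal allele in neurons. It was at 10.87, 10.86 and 10.81 on homozygous, 11.11, 11.11 and 11.09 on heterozygous and 11.37, 11.38 and 11.36 on wild-type arrays. The 3 genotypes formed separate steps with little spread within each. Grb10 differed from wild type by -0.52 ± 0.05 in homozygous (SE, adjusted p = 1.27e-05) and by -0.26 in heterozygous blood (adjusted p = 0.00693), and homozygous minus heterozygous was -0.26 (adjusted p = 0.00613). Its other 2 probe sets did not pass, and with the mean of all 3 the homozygous minus heterozygous difference was -0.054 (adjusted p = 0.496).

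Gnas, whose locus encodes the stimulatory G protein alpha subunit and other products under tissue-dependent imprinting, showed the same steps. It was at 10.76, 10.64 and 10.61 on homozygous, 11.14, 11.13 and 11.10 on heterozygous and 11.45, 11.46 and 11.42 on wild-type arrays. No 2 genotypes overlapped. The difference was -0.77 ± 0.06 in homozygous minus wild-type blood (SE, adjusted p = 1.39e-06), -0.32 in heterozygous minus wild-type blood (adjusted p = 0.00441) and -0.45 in homozygous minus heterozygous blood (adjusted p = 0.000246). This is a probe set ending in _s_at, a suffix for probes shared by several transcripts. The other 4 Gnas probe sets did not pass, and the mean over all 5 gave -0.087 in homozygous minus wild-type blood (adjusted p = 0.162).

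Around Igf2 on the same chromosome lie Cdkn1c, Phlda2 and Cd81, listed here as maternally expressed. Cdkn1c, the cyclin-dependent kinase inhibitor p57, was at 7.00, 6.74 and 6.89 on homozygous arrays, 7.86, 7.76 and 7.67 on heterozygous arrays and 7.40, 7.33 and 7.22 on wild-type arrays. It had the order of Igf2, with no overlap. Cdkn1c differed by -0.44 ± 0.08 in homozygous minus wild-type blood (SE, adjusted p = 0.00185), by 0.45 in heterozygous minus wild-type blood (adjusted p = 0.00449) and by -0.88 in homozygous minus heterozygous blood (adjusted p = 1.85e-05). It was the 1 maternally expressed gene among the 7 with heterozygous blood above both others.

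Phlda2, a pleckstrin homology domain protein that limits placental growth, went the other way. It was at 5.83, 5.71 and 5.72 on homozygous arrays, 5.30, 5.26 and 5.26 on heterozygous arrays and 5.78, 5.76 and 5.74 on wild-type arrays. Heterozygous arrays lay below all others, and homozygous and wild-type arrays overlapped. The difference was -0.49 ± 0.06 in heterozygous minus wild-type blood (SE, adjusted p = 0.000228), 0.48 in homozygous minus heterozygous blood (adjusted p = 0.000108) and -0.0081 in homozygous minus wild-type blood (adjusted p = 0.942).

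Cd81, a tetraspanin of the cell surface, was at 7.04, 7.07 and 6.92 on homozygous arrays, 7.66, 7.66 and 7.59 on heterozygous arrays and 7.49 on each wild-type array. Homozygous arrays were lowest and heterozygous arrays slightly above wild type. Cd81 fell by 0.48 ± 0.06 in homozygous against wild-type blood (SE, adjusted p = 6.94e-05) and was lower than in heterozygous blood (-0.62, adjusted p = 2.18e-05), while heterozygous minus wild type was 0.14 (adjusted p = 0.197). Ascl2, a trophoblast transcription factor gene, Slc22a18, a transporter gene, and Kcnq1ot1, the noncoding RNA that silences its neighbours on the paternal copy, passed in no comparison. Kcnq1ot1 differed by 0.08 in homozygous minus wild-type and 0.06 in heterozygous minus wild-type blood.

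H13, the gene of signal peptide peptidase, was higher in both mutant genotypes. It was at 8.17, 7.99 and 7.86 on homozygous arrays, 7.66, 7.70 and 7.61 on heterozygous arrays and 7.19, 7.26 and 7.10 on wild-type arrays, with no overlap. It rose by 0.82 ± 0.08 in homozygous (SE, adjusted p = 1.01e-05) and by 0.47 in heterozygous blood (adjusted p = 0.00276), both against wild type, and homozygous minus heterozygous was 0.35 (adjusted p = 0.0121). The other 5 H13 probe sets did not pass, and with the mean over all 6 the heterozygous minus wild-type difference was 0.089 (adjusted p = 0.275).

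Dcn, which encodes the matrix proteoglycan decorin, and Gatm, the first enzyme of creatine synthesis, were low in homozygous blood. Dcn was at 4.46, 4.70 and 4.54 on homozygous arrays, 5.07, 4.94 and 5.03 on heterozygous arrays and 4.82, 5.06 and 4.82 on wild-type arrays. Gatm was at 3.70, 3.93 and 3.75 on homozygous arrays, 4.05, 4.13 and 4.05 on heterozygous arrays and 4.23, 4.05 and 4.04 on wild-type arrays. For both, homozygous arrays were below the other 6 and heterozygous and wild-type arrays overlapped. Dcn differed by -0.33 ± 0.08 in homozygous minus wild-type blood (SE, adjusted p = 0.0122), a call lost without homozygous replicate 1 (-0.28, adjusted p = 0.0504) or wild-type replicate 2 (-0.25, adjusted p = 0.0566). Its difference from the midpoint, 0.28 (adjusted p = 0.0557), passed under 7 alternatives (0.28 to 0.32). These were leaving out homozygous replicate 2 (adjusted p = 0.0346), wild-type replicate 2 (0.0264) or the dimmest 40% of probe sets (0.0367), the trend and robust prior (0.039), cyclic loess (0.0448), equal array medians (0.049) and adjustment over 1 probe set per gene (0.0405). Gatm differed by -0.32 in homozygous minus wild-type blood (adjusted p = 0.00933) and by -0.28 in homozygous minus heterozygous blood (adjusted p = 0.028). The second Gatm call was lost without homozygous replicate 1 (-0.24, adjusted p = 0.0876) or 3 (-0.26, adjusted p = 0.0858), and without heterozygous replicate 1 (-0.30, adjusted p = 0.0682), 2 (-0.26, adjusted p = 0.104) or 3 (-0.30, adjusted p = 0.0581).

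**Figure D3:**
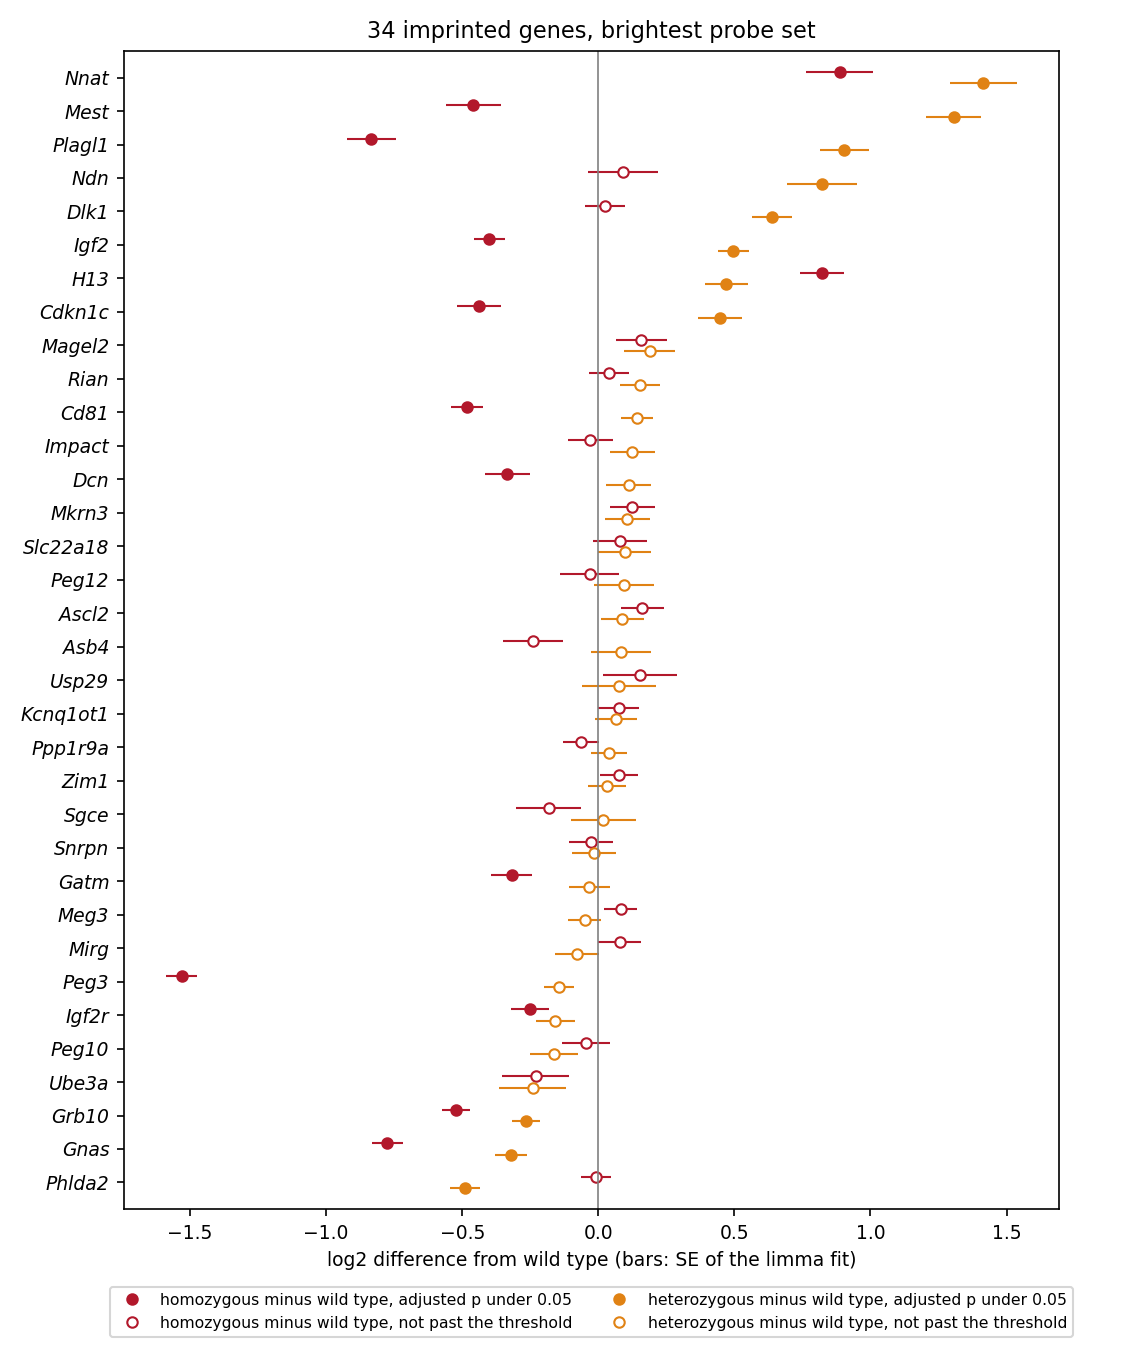
Each row is 1 of the 34 measured imprinted genes, with the homozygous and the heterozygous log2 difference from wild type as points with SE bars, filled where the adjusted p is under 0.05. Mest and Plagl1 lie right of 0 in heterozygous and left of 0 in homozygous blood, and Peg3 lies furthest left at -1.53, all relative to each array as a whole.

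The other 18 genes were called in no comparison by their brightest probe set, and 4 of them lay among the dimmest 40% of probe sets. They are Ascl2, Kcnq1ot1, Slc22a18, Meg3, Rian, Mirg, Zim1, Usp29, Snrpn, Ube3a, Magel2, Mkrn3, Peg12, Peg10, Sgce, Asb4, Ppp1r9a and Impact. Their differences ran over -0.24 to 0.16 in homozygous minus wild-type, -0.24 to 0.19 in heterozygous minus wild-type and -0.32 to 0.16 in homozygous minus heterozygous blood. The lowest adjusted p among them was 0.167, 0.298 and 0.0888 in that order of comparisons. The 0.0888 belongs to Asb4, an ankyrin repeat gene, which is named after its values were seen. Without homozygous replicate 3, Asb4 passed in homozygous minus wild-type (-0.35, adjusted p = 0.0427) and in homozygous minus heterozygous blood (-0.44, adjusted p = 0.0254). With the means of the 7 reference genes set equal, 4 of the 18 passed in homozygous minus wild-type blood, where 28.3% of all genes fell. These were Asb4 (-0.40, adjusted p = 0.0253), Sgce (-0.34, adjusted p = 0.0326), Ppp1r9a (-0.23, adjusted p = 0.0352) and Ube3a (-0.39, adjusted p = 0.0321). Peg10 passed in heterozygous minus wild-type blood under the same scaling (-0.30, adjusted p = 0.0302).

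Calls differed in number between clusters. In the Dlk1-Meg3 cluster Dlk1 was the 1 called gene of 4, and in the Peg3 cluster Peg3 was the 1 of 3. In the Snrpn-Ube3a cluster Ndn was the 1 of 6. In the Peg10 cluster, where all 4 were measured, none was called on the deposited scale. With the reference gene means set equal, Asb4, Sgce and Ppp1r9a passed in homozygous minus wild-type blood. Under that scaling Peg10 passed in heterozygous minus wild-type blood. Around Igf2 and Kcnq1, 3 of 7 were called in each mutant genotype against wild type (42.9%). Of the 10 measured genes outside these clusters, 9 were called in homozygous (90%) and 6 in heterozygous blood (60%) against wild type. Over all genes the shares were 25.6% in homozygous and 11.8% in heterozygous blood. The genes were also split by the expressed allele assigned to each, which was not measured in this blood and may not hold there. Of 16 genes assigned as paternally expressed, 6 were higher and none lower in heterozygous than in wild-type blood. Of 15 assigned as maternally expressed, 2 were higher (Cdkn1c and H13) and 1 lower. In homozygous against wild-type blood, 4 of the paternal class were lower and 1 higher. Of the maternal class 5 were lower (Cd81, Cdkn1c, Igf2r, Dcn and Gatm) and 1 higher. Grb10, Gnas and Ube3a, whose expressed allele differs between tissues, are counted in neither class. Of these 3, 2 (Grb10 and Gnas) were lower than wild type in each mutant genotype. Over all genes, 4.79% were higher and 7.04% lower in heterozygous blood, and 10.7% higher and 14.9% lower in homozygous blood. Whether the 2 classes differ was not tested.

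Meg3, the maternally expressed noncoding RNA of the Dlk1 cluster, was at 11.65, 11.50 and 11.59 on homozygous arrays, 11.40, 11.45 and 11.50 on heterozygous arrays and 11.51, 11.46 and 11.53 on wild-type arrays. The groups overlap, and no comparison passed by this probe set (0.082 in homozygous minus wild type, adjusted p = 0.399). It ends in _x_at, the suffix described for Plagl1. Meg3 passed under some alternatives. The mean of all its probe sets gave 0.18 in homozygous (adjusted p = 0.00914) and 0.17 in heterozygous minus wild-type blood (adjusted p = 0.02). Without probe sets ending in _x_at or _s_at, homozygous minus wild type was 0.24 (adjusted p = 0.011). Homozygous minus heterozygous passed with the trend and robust prior (0.13, adjusted p = 0.0246) and quantile normalization (0.18, adjusted p = 0.0474). Among the 11 Meg3 probe sets, 4 rose in homozygous against wild-type blood, by 0.20 to 0.43. In heterozygous against wild-type blood 2 were higher, by 0.48 and 0.87. The probe sets conflict in homozygous minus heterozygous blood, where 1 was called lower (-0.91, adjusted p = 0.00175) and 1 higher (0.31, adjusted p = 0.0375). The lower one is the probe set with the 0.87, and its heterozygous arrays were uneven, at 6.21, 5.53 and 5.43. Rian, a noncoding RNA downstream of Meg3, did not pass by its brightest probe set, and 1 of its 4 probe sets was lower in homozygous than in heterozygous blood (-0.95, adjusted p = 0.00389).

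Snrpn, which encodes a spliceosome protein, was at 6.12, 6.03 and 5.83 on homozygous arrays, 5.96, 6.03 and 6.02 on heterozygous arrays and 5.94, 5.98 and 6.14 on wild-type arrays. These overlap, and the homozygous minus wild-type difference was -0.028 (adjusted p = 0.851). The annotation gives 6 further probe sets to Snurf and Snrpn together, the 2 reading frames of 1 transcript, and these name no single gene. Of these, the 4 brighter fell in homozygous against wild-type blood, at -0.29 (adjusted p = 0.00179), -0.35 (adjusted p = 0.000447), -0.50 (adjusted p = 0.000412) and -0.29 (adjusted p = 0.00217), and none passed in heterozygous minus wild-type blood.

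**Figure D4:**
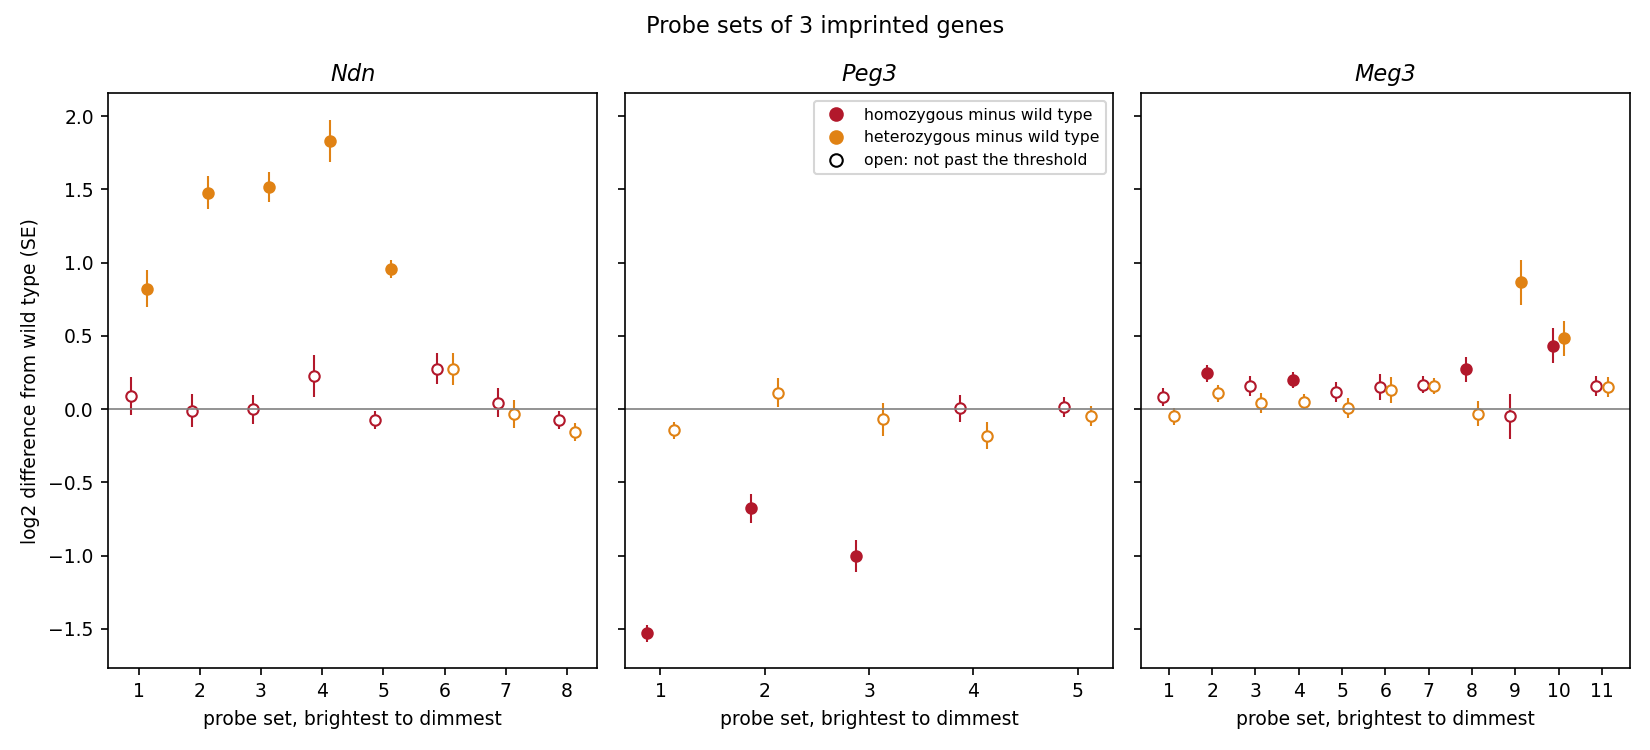
Points with SE bars give the log2 difference of every probe set of Ndn, Peg3 and Meg3, in order of mean signal from brightest to dimmest, for homozygous and heterozygous minus wild-type blood, filled where the adjusted p is under 0.05. Ndn has 5 of 8 probe sets called higher in heterozygous blood and Peg3 has 3 of 5 called lower in homozygous blood, relative to each array as a whole.

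Over all 98 probe sets of the 34 genes, 14 fell and 7 rose in homozygous against wild-type blood, while 20% of all probe sets were called. In heterozygous against wild-type blood 14 were higher and 3 lower (8.56% of all probe sets called), and in homozygous against heterozygous blood 22 were lower and 4 higher (12.1% called). The midpoint comparison called 3.72% of all probe sets. Of the 64 probe sets that are not the brightest of their gene, 6 were higher and none lower in heterozygous than in wild-type blood. All 6 belong to Ndn or Meg3. In homozygous against wild-type blood 3 of the 64 fell and 5 rose. The shares of all probe sets called are 8.56% in the heterozygous and 20% in the homozygous comparison. Mest, Nnat, Cdkn1c, Cd81, Phlda2 and Gatm have 1 probe set, and the calls of Igf2, Dlk1, Plagl1, Grb10, Gnas, H13, Dcn and Igf2r rest on the brightest probe set alone. Impact, named after its values were seen, was not called by its brightest probe set but was lower by its second in homozygous minus wild-type blood (-0.54, adjusted p = 0.000241). Its probe sets conflict in homozygous minus heterozygous blood, where the second was lower (-0.31, adjusted p = 0.0215) and the dimmest higher (0.27, adjusted p = 0.0266).

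Of 35 measured imprinted genes outside the 36, 1 rose and 2 fell in homozygous blood, and 3 fell in heterozygous blood, each against wild type. That is 8.57% in each comparison, below the 25.6% of all genes in homozygous and the 11.8% in heterozygous blood. Their median difference was 0.035 in homozygous and 0.018 in heterozygous blood. Pon2, a paraoxonase gene, differed by -0.55 in homozygous (adjusted p = 5.46e-05) and -0.34 in heterozygous blood (adjusted p = 0.00621). Nap1l4, a histone chaperone gene near Cdkn1c, differed by -0.38 in homozygous blood (adjusted p = 0.000774). Pon3 differed by -0.43 in heterozygous blood (adjusted p = 0.0405), and Tssc4 by 0.31 in homozygous blood (adjusted p = 0.0111).

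Among 17 measured genes that set or keep imprints, 3 rose and 5 fell in homozygous against wild-type blood, and 3 rose and 3 fell in heterozygous blood. That is 47.1% against 25.6% of all genes in homozygous blood, and 35.3% against 11.8% in heterozygous blood. Uhrf1, which brings the maintenance methyltransferase to newly copied DNA, was higher by 0.81 in homozygous (adjusted p = 1.45e-06) and 0.58 in heterozygous blood (adjusted p = 0.000154). Hells, a chromatin remodeller needed for DNA methylation, differed by -1.29 in homozygous (adjusted p = 2.35e-07) and -0.50 in heterozygous blood (adjusted p = 0.00165). Dnmt3b, a de novo methyltransferase, differed by -1.20 in homozygous (adjusted p = 1.17e-05) and -0.44 in heterozygous blood (adjusted p = 0.0402). Ctcf, the insulator protein that binds the Igf2-H19 control region, differed by -0.68 in homozygous (adjusted p = 4.91e-05) and -0.30 in heterozygous blood (adjusted p = 0.0403). DNA methylation was not measured.

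Of 14 measured partners of IGF2 signalling, 1 rose and 3 fell in homozygous blood, and 1 rose and 1 fell in heterozygous blood, all against wild type. That is 28.6% against 25.6% of all genes in homozygous blood, and 14.3% against 11.8% in heterozygous blood. Igfbp2, an IGF binding protein gene, was higher by 0.31 in homozygous (adjusted p = 0.0419) and 0.66 in heterozygous blood (adjusted p = 0.0012). Irs2, an adaptor of the insulin and IGF1 receptors, differed by -0.36 in homozygous (adjusted p = 0.000566) and -0.47 in heterozygous blood (adjusted p = 0.000365). Igfbp4 differed by -0.40 in homozygous blood (adjusted p = 0.0122), and Igf2bp3, whose product binds Igf2 messenger RNA, by -0.23 (adjusted p = 0.0452).

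Markers of other tissues of the embryo also differed between genotypes. The mean of the mesenchyme markers had the order of Mest and Plagl1, with homozygous blood lowest. Muscle and neural means were highest in heterozygous blood. Neural means were lowest in wild-type blood, and for muscle the homozygous and wild-type arrays overlapped. The mean of 14 mesenchyme and matrix markers was 5.24 on homozygous (5.21 to 5.27), 5.65 on heterozygous (5.64 to 5.68) and 5.48 on wild-type arrays (5.46 to 5.50). Of these, 6 were lower and none higher in homozygous blood, and 4 were higher and 1 lower in heterozygous blood, against wild type. The other 8 in homozygous and 9 in heterozygous blood were not called. The median marker moved little, by -0.069 in homozygous and 0.065 in heterozygous blood. Single markers ran over -1.02 to 0.19 in homozygous and -0.28 to 0.93 in heterozygous blood. Col3a1, a fibrillar collagen gene, differed by -0.94 in homozygous (adjusted p = 2.12e-05) and 0.93 in heterozygous blood (adjusted p = 0.000149). The mean of 12 muscle markers was 4.37 on homozygous (4.32 to 4.42), 4.81 on heterozygous (4.79 to 4.83) and 4.35 on wild-type arrays (4.33 to 4.37), and 5 were higher in heterozygous blood, among them Actc1, cardiac actin, by 2.50 (adjusted p = 5.86e-09). The mean of 14 neural markers was 4.39 on homozygous (4.37 to 4.41), 4.47 on heterozygous (4.45 to 4.48) and 4.24 on wild-type arrays (4.22 to 4.27). Of these, 2 were higher in homozygous and 5 in heterozygous blood, among them Tubb3, neuronal tubulin, by 0.52 in homozygous (adjusted p = 0.0131) and 0.80 in heterozygous blood (adjusted p = 0.00232). In homozygous against wild-type blood 42.9% of mesenchyme, 16.7% of muscle and 14.3% of neural markers were called, against 25.6% of all genes. In heterozygous against wild-type blood the shares were 35.7%, 41.7% and 35.7% in that order, against 11.8% of all genes. The median heterozygous minus wild-type difference was 0.31 for muscle and 0.24 for neural markers, below the values of Actc1 and Tubb3. The part of these tissues in the imprinted gene results was not tested.

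Liver and visceral endoderm markers ran in another order, with means over 11 genes of 5.70 on homozygous (5.70 to 5.71), 5.22 on heterozygous (5.19 to 5.25) and 5.36 on wild-type arrays (5.34 to 5.36), and 6 were higher in homozygous blood. Afp, alpha-fetoprotein, differed by 1.06 in homozygous (adjusted p = 6.86e-07) and -0.51 in heterozygous blood (adjusted p = 0.00102). The median over the 11 genes was 0.26 in homozygous and -0.12 in heterozygous blood, against wild type. The 9 placental markers averaged 5.00 in homozygous, 4.88 in heterozygous and 4.90 in wild-type blood, and the 12 endothelial markers 4.50 in homozygous, 4.52 in heterozygous and 4.50 in wild-type blood. Blood cell classes moved too. Macrophage markers averaged 4.54 in homozygous, 6.69 in heterozygous and 7.05 in wild-type blood over 11 genes, and 10 of these were lower in homozygous and 5 in heterozygous blood than in wild type. Megakaryocyte markers averaged 5.59 in homozygous, 7.25 in heterozygous and 7.01 in wild-type blood over 8 genes. Embryonic erythroid markers averaged 12.05 in homozygous, 12.07 in heterozygous and 12.17 in wild-type blood over 10 genes, and stem and progenitor markers 4.63 in homozygous, 4.83 in heterozygous and 5.03 in wild-type blood over 8 genes. In homozygous against wild-type blood 54.5% of liver and 90.9% of macrophage markers were called, against 25.6% of all genes. In heterozygous against wild-type blood the shares were 9.09% and 45.5% in that order, against 11.8% of all genes. The part of these tissues and blood cell classes in the imprinted gene results was not tested.

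**Figure D5:**
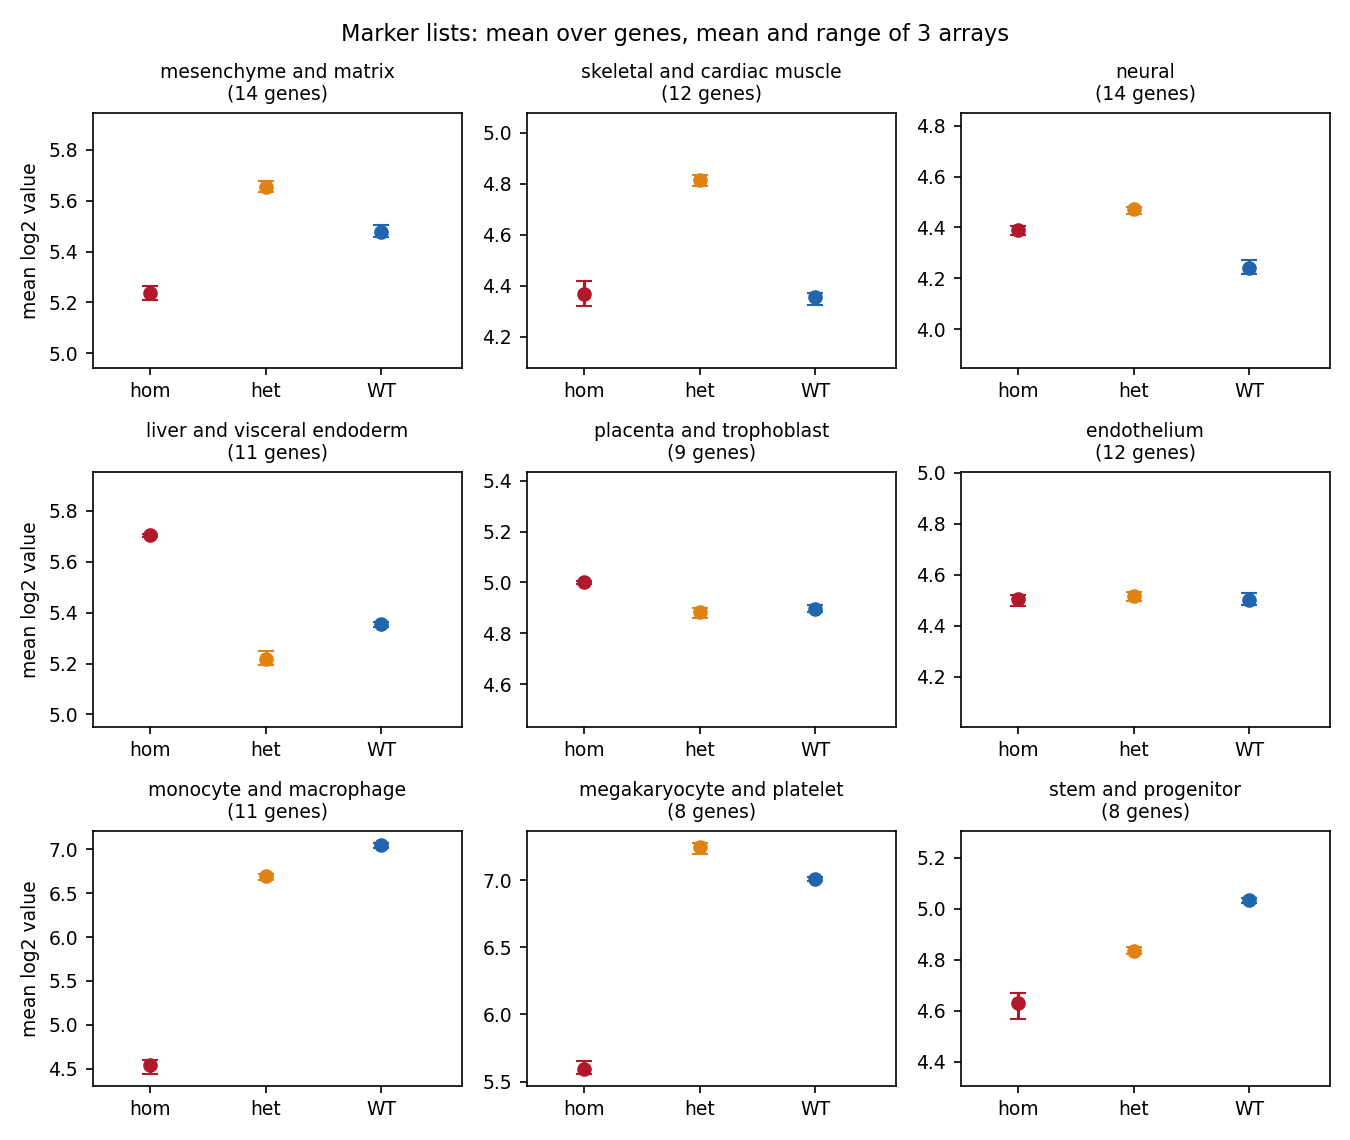
Each panel is 1 marker list, with the mean log2 value over its measured genes as a point for each genotype and bars from the lowest to the highest of 3 arrays, for homozygous (hom), heterozygous (het) and wild-type (WT) blood; the vertical scale differs between panels. Mesenchyme and muscle means are highest on heterozygous arrays (5.65 and 4.81), and macrophage means are lowest on homozygous arrays (4.54).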

How the data were processed

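Total RNA of pooled blood was extracted with RNA-STAT and labelled by the one-cycle method, per the labels' protocols. Partek 6.5, RMA and Affymetrix Expression Console 1.0 are named in the submitters' processing notes, with no step given for any of them. The deposited values were read as log2 because of their range and because RMA is named; no label gives the scale. RMA equalizes array distributions, so a uniform difference in RNA content is removed. Neither scanner files nor detection calls were used.

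Of 45101 probe sets, 64 controls were left out of the tests. The annotation names 1 gene for 34945 of the remaining 45037, several for 932 and none for 9160. In R 4.3.3, limma 3.58.1 fitted a linear model of genotype to the 9 arrays together with moderated variances, tested 2-sided with Benjamini-Hochberg adjustment over all 45037 at a threshold of 0.05. Promoters and figures used Python 3.11.15 and matplotlib 3.10.9.

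The members and lists were chosen with earlier results of these data known. Called members are described array by array, up to 6 uncalled neighbours with values, up to 4 called genes per further list with the largest change, and up to 3 markers per list. Asb4, Impact and uncalled genes that passed under an alternative were added after their values were seen. On simulated arrays with the real spreads (homozygous minus wild type, 45037 probe sets), changes of 0.25, 0.5 and 1 were recovered in 10%, 76% and 100%, with 7 false calls. The alternatives were other fits, filters, normalizations, scalings, probe sets per gene and a threshold of 0.01, and leaving out each array.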

Additional observations from a re-analysis of the deposited data

How the results depend on the processing

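The called counts are 13 in homozygous minus wild-type, 11 in heterozygous minus wild-type, 15 in homozygous minus heterozygous blood and 10 against the midpoint. Set to equal poly-A spike-in means, they became 34, 32 and 34 in the 3 comparisons of genotypes, since that scaling moves every gene by a constant. With the second brightest probe set heterozygous minus wild type gave 5, a count in which genes with 1 probe set kept it. Reference gene scaling moved the median of all probe sets to -0.12 in homozygous and -0.13 in heterozygous minus wild-type blood. Leaving out 1 array gave 11 to 14, 11 to 11, 13 to 15 and 10 to 11. The replicate block gave 13, 11, 15 and 10 and changed no call of a member. Same-numbered arrays correlated at -0.0231 to 0.0695 in their deviations and differently numbered ones at -0.062 to 0.0341, so the numbers were not taken to pair the samples.

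Of 828 alternative values of 39 called gene differences, 775 kept direction and call, 36 lost the call and 17 turned sign, all 17 through another probe set and none past the threshold. The cause was not tested. Most alternatives reused the brightest probe set, so the pooled count says little about other probe sets. With the second brightest probe set, 4 of 24 differences kept direction and call (Peg3 and Ndn), 9 lost the call and 11 turned sign. By that probe set, homozygous minus wild type was 0.090 for Igf2 and 0.027 for Gnas. Heterozygous minus wild type was -0.088 for Dlk1 and -0.0062 for Plagl1. Homozygous minus heterozygous was 0.055 for Igf2, 0.093 for Dlk1, 0.15 for Grb10, 0.0025 for Plagl1, 0.17 for Gnas, 0.091 for Dcn and -0.089 for H13. Without probe sets ending in _x_at or _s_at, Gnas gave 0.13 in homozygous minus wild-type and 0.14 in homozygous minus heterozygous blood, and Dlk1 and Plagl1 gave the values just listed. Some uncalled differences passed under 1 alternative each: Cd81 in heterozygous minus wild-type blood with quantile normalization (0.19, adjusted p = 0.0496), Slc22a18 in homozygous minus wild-type blood with its second brightest probe set (0.20, adjusted p = 0.0497), and, with reference gene means set equal, Peg3 (-0.28, adjusted p = 0.00479) and Igf2r (-0.29, adjusted p = 0.0173) in heterozygous minus wild-type blood. Signal over background is unknown, which leaves the dim genes without a stated limit.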

Other observations

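The probe set shared by H19, the maternally expressed noncoding RNA next to Igf2, and Mir675, the microRNA within it, names no single gene. It averaged 12.62 ± 0.03 in homozygous, 12.58 ± 0.05 in heterozygous and 12.85 ± 0.01 in wild-type blood (SD, n = 3 each). It differed by -0.23 in homozygous minus wild-type blood (limma, adjusted p = 0.0094), by -0.26 in heterozygous minus wild-type blood (adjusted p = 0.0097) and by 0.03 in homozygous minus heterozygous blood (adjusted p = 0.769). Igf2, by its own brightest probe set, was higher in heterozygous than in wild-type blood. The probe set shared by Airn and Igf2r passed in no comparison, at 0.19 in homozygous minus wild-type (adjusted p = 0.144) and 0.07 in heterozygous minus wild-type blood (adjusted p = 0.751).

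Of the 18 imprinted genes with no call, Usp29 and Sgce, picked out after their values were seen, spread widely among homozygous arrays. Usp29 had an SD of 0.36 in homozygous and 0.04 in heterozygous blood, and Sgce an SD of 0.29 in homozygous and 0.07 in heterozygous blood.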
